A study of Mus musculus with 12 samples.

Results

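The acute phase proteins of liver, the IL-6 and IL-1 signalling genes that control them and the A-clade serpins were compared between spontaneous hepatocellular carcinoma (HCC) and normal liver of the mouse. The set was a list of 32 gene symbols, of which 30 were named by at least 1 probe set that names a single gene, out of 18193 genes measured in that way. Serpina3m and Serpina3k were not named by such a probe set and have no value here. Each gene was read from its brightest probe set as log2(intensity + 16), and these values are called log2 levels below.

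The RNA came from 6 HCC and 6 normal livers of B6C3F1 mice, a hybrid strain used in long-term toxicology bioassays, with 1 Affymetrix array per sample. The mice were 2 years old and untreated in both groups, and the tumours had arisen spontaneously. Nothing in the labels says whether any of the 12 samples shared an animal, and no sex is given, so the p-values measure the spread between these samples. In whole tissue, fewer cells of a type and less RNA per cell cannot be told apart.

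In the acute phase response hepatocytes change their output of plasma proteins after injury or infection. IL-6 binds Il6ra and the shared subunit Il6st, which activate the transcription factor Stat3, and Stat3 induces the inhibitor Socs3. IL-1 acts through Il1r1 on NF-kB and C/EBP factors and is blocked by the antagonist Il1rn, and serum amyloid A genes need both arms for full induction. Serpins are a family of protease inhibitors, some of which have become hormone carriers.

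All arrays had a 2% trimmed mean of 500.0 and between 14.2% and 18.1% of probe sets under an intensity of 16. The mean log2 level of Uty, Kdm5d and Eif2s3y, genes of the Y chromosome, was 8.96 to 9.77 in HCC 2, 3, 5 and 6 and 9.26 to 9.49 in normal livers 2, 4, 5 and 6. In HCC 1, HCC 4, normal 1 and normal 3 it was at most 4.85. The summed normalized intensity of 10 measured hepatocyte markers was 392908 to 449515 in HCC and 443569 to 455491 in normal liver (exact permutation p = 0.00649, adjusted p = 0.0649 over 10 measures). The defining markers of the labelled tissue were bright in both groups, and 1 of the 10, the glucocorticoid-induced tyrosine aminotransferase Tat, fell (-1.14 ± 0.33, SE, limma adjusted p = 0.0369), a call lost when any of 10 arrays was omitted.

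The comparison asked which members differed between HCC and normal liver. Of the 30, 6 rose in HCC and 2 fell at an adjusted p under 0.05 (Benjamini-Hochberg, over all genes), and 22 did not pass. The 6 were Lcn2, Il1rn, Serpina3n, Serpina12, Cp and Il1r1, and the 2 were Crp and Saa4. Over all genes 6.48% were called higher and 7.24% lower. At an unadjusted p under 0.05 there were 14 members, against 28.5% of all genes. The groups did not overlap in 6 members. HCC was the higher group in 5 of these (4.25% of all genes) and the lower in 1, Crp (4.5% of all genes). The median log2 difference was 0.20 over the members and -0.04 over all genes.

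**Figure D1:**
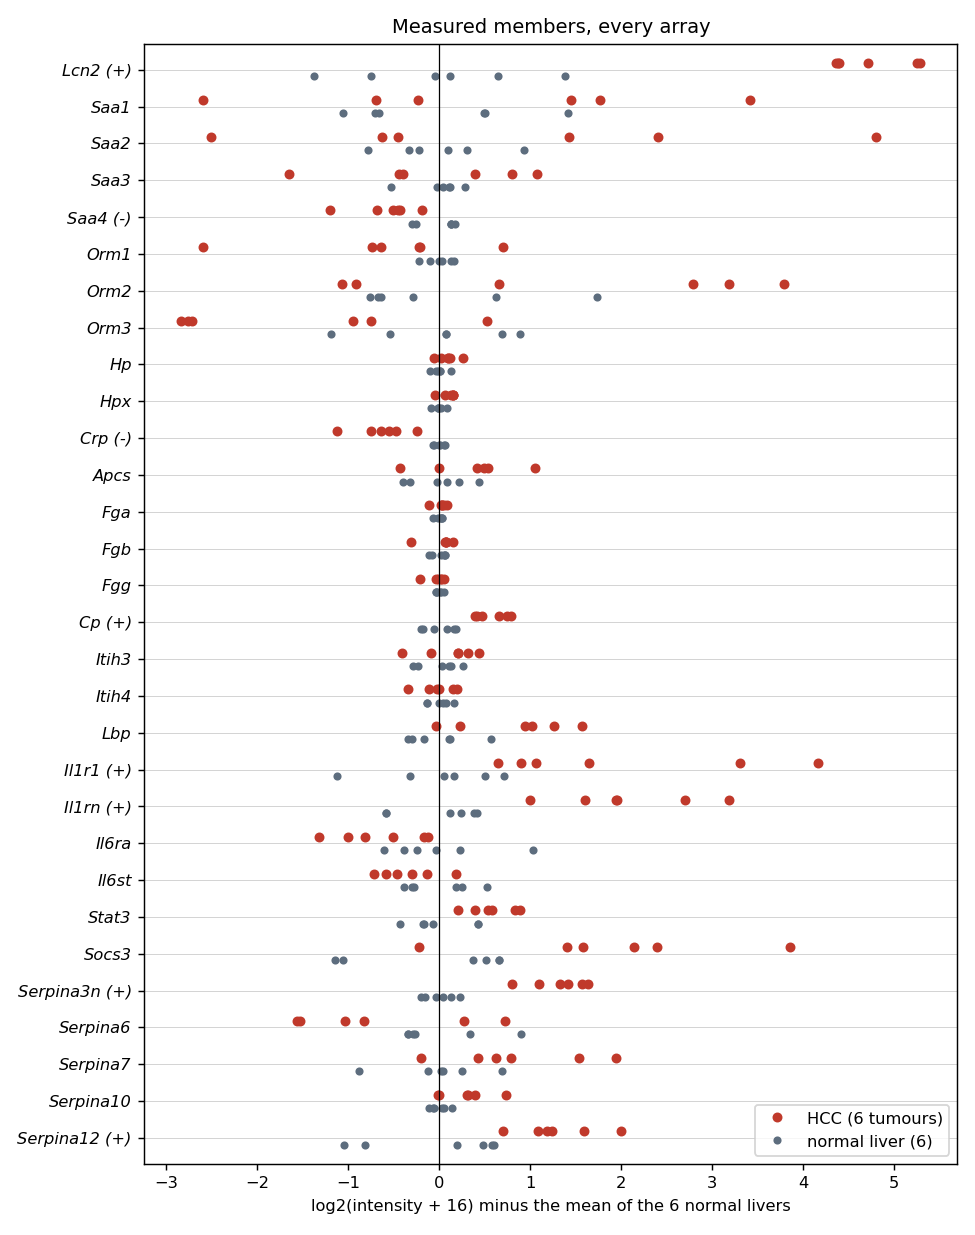
Log2 level of each of the 30 measured members minus the mean of the 6 normal livers (x axis, log2 units), with 1 point per array, HCC above normal liver in each row; (+) and (-) mark the 6 members that rose and the 2 that fell. Lcn2 stands furthest to the right, with all 6 HCC above all 6 normal livers, while points of Saa1, Saa2, Orm2 and Orm3 spread widely among the HCC.

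Lipocalin 2 (Lcn2) is a secreted protein that binds bacterial siderophores and is made by hepatocytes and neutrophils. Its log2 level was 14.44, 14.47, 14.79, 14.46, 15.33 and 15.37 in HCC 1 to 6, against 10.73, 11.46, 10.03, 8.71, 9.33 and 10.20 in normal livers 1 to 6. The 6 tumours lay close together and far above every normal liver. The mean was 14.81 ± 0.44 in HCC and 10.08 ± 0.98 in normal livers (SD, n = 6 each). Lcn2 rose by 4.73 ± 0.40 log2 units (SE, limma adjusted p = 2.71e-05), which is 26.6-fold on the intensity + 16 scale. It kept its call with any 1 array left out (limma adjusted p up to 0.000131).

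The interleukin 1 receptor antagonist (Il1rn), a secreted decoy ligand of the IL-1 receptor, had log2 levels of 9.17, 10.12, 11.36, 9.78, 10.12 and 10.87 in HCC 1 to 6, against 8.42, 7.59, 8.30, 8.59, 7.59 and 8.56 in normal livers 1 to 6. Every tumour exceeded every normal liver, HCC 1 by the least. Il1rn rose by 2.06 ± 0.34 (SE, limma adjusted p = 0.00231). Its other probe sets gave 2.11 and 2.84, and both passed a test over every probe set, which called 8.33% of them. The receptor itself, Il1r1, was at 12.04, 8.53, 8.94, 11.19, 8.79 and 9.53 in HCC 1 to 6 and at 8.60, 8.39, 7.56, 7.94, 8.05 and 6.76 in normal livers 1 to 6. HCC 1 and HCC 4 stood more than 1 log2 unit above the other tumours, and HCC 2 lay within the normal range. Il1r1 rose by 1.95 ± 0.58 (SE, limma adjusted p = 0.043). That call was lost in 8 of the 12 fits that each omit 1 array (HCC 1, 4 and 6 and normal livers 2 to 6, limma adjusted p up to 0.0897). A dim second probe set was at -0.19, and the mean of both gave 0.88 (limma adjusted p = 0.104).

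Serpina3n, a mouse counterpart of the human acute phase protease inhibitor alpha-1-antichymotrypsin, had log2 levels of 13.86, 13.54, 13.77, 14.08, 13.24 and 14.01 in HCC 1 to 6, against 12.48, 12.67, 12.29, 12.24, 12.41 and 12.57 in normal livers 1 to 6. The groups did not overlap. Serpina3n rose by 1.31 ± 0.16 (SE, limma adjusted p = 0.000321), and the Serpina3 cluster holds near-identical copies, so the share of the signal from each copy is uncertain. Ceruloplasmin (Cp), the copper-carrying ferroxidase of plasma, was at 15.35, 15.71, 15.61, 15.43, 15.75 and 15.38 in HCC 1 to 6 and at 15.14, 14.90, 15.12, 15.04, 14.76 and 14.78 in normal livers 1 to 6. All tumours lay above all normal livers, by a narrow margin. Cp rose by 0.58 ± 0.13 (SE, limma adjusted p = 0.0112). Of its 8 probe sets 7 were higher in HCC, from 0.29 to 0.95, and the dimmest was at -0.12. Those at 0.58, 0.95 and 0.59 passed the test over every probe set (limma adjusted p = 0.0242, 0.0102 and 0.0291). The rest did not, a bright one at 0.29 among them (limma adjusted p = 0.306).

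Vaspin (Serpina12), a kallikrein-inhibiting serpin, had log2 levels of 13.33, 14.62, 13.71, 13.81, 14.22 and 13.86 in HCC 1 to 6, against 11.57, 13.11, 11.81, 12.82, 13.20 and 13.23 in normal livers 1 to 6. No tumour fell within the normal range, and normal 1 and normal 3, without Y-linked signal, were the lowest of all arrays. Serpina12 rose by 1.30 ± 0.33 (SE, limma adjusted p = 0.02), with a second probe set at 1.13.

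C-reactive protein (Crp), a pentraxin that is a leading acute phase reactant in humans but a weak one in mice, went the other way. Its log2 level was 13.49, 13.60, 13.69, 13.76, 13.99 and 13.12 in HCC 1 to 6, against 14.30, 14.18, 14.17, 14.25, 14.29 and 14.23 in normal livers 1 to 6. The normal livers were tightly grouped and every tumour lay below them. Crp fell by 0.63 log2 units with an SE of 0.14 (limma adjusted p = 0.0127), and by 0.64 within the arrays with Y-linked signal, where the call was lost (limma adjusted p = 0.103). The constitutive serum amyloid Saa4 was at 12.97, 12.92, 12.23, 13.00, 13.24 and 12.75 in HCC 1 to 6 and at 13.12, 13.56, 13.18, 13.56, 13.60 and 13.55 in normal livers 1 to 6. Only HCC 5 reached the normal range. Saa4 fell by 0.58 (limma adjusted p = 0.0452), a call kept only in the fits that omit normal 1 or HCC 5 and lost when any of the other 10 arrays was omitted (limma adjusted p up to 0.0934).

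**Figure D2:**
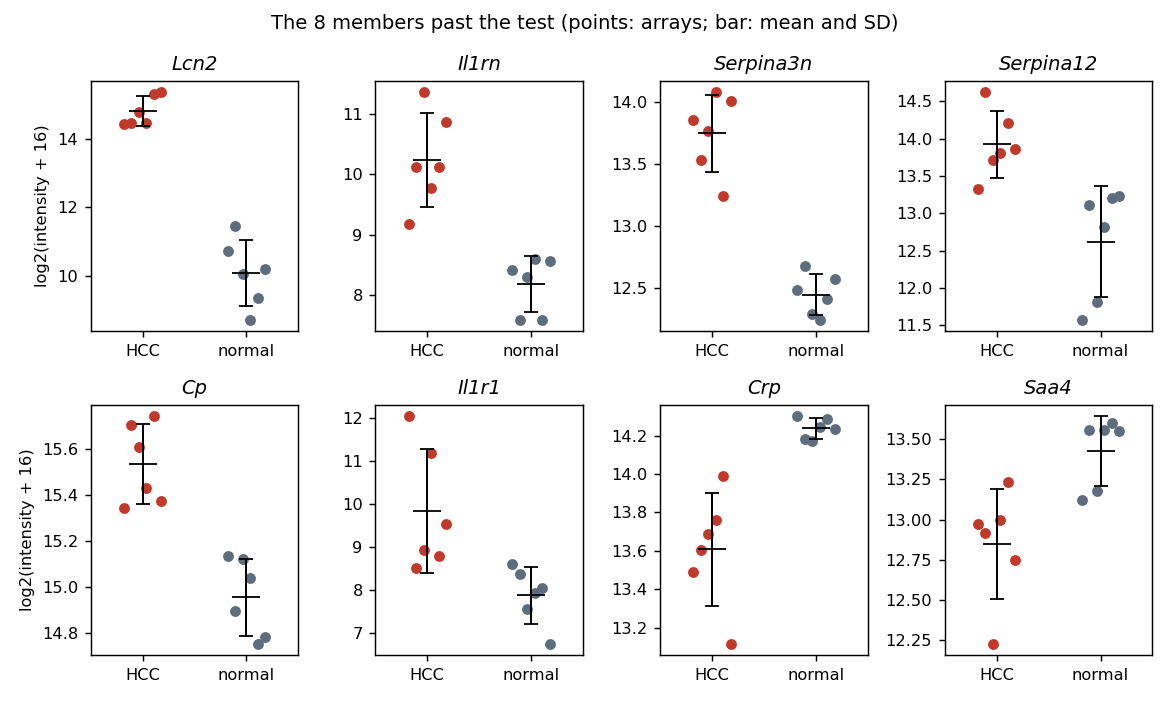
Log2 level (y axis, a separate scale in each panel) of the 8 members past the test in 6 HCC and 6 normal livers, with points for arrays and bars for the mean and SD. HCC and normal liver do not overlap in Lcn2, Il1rn, Serpina3n, Serpina12, Cp and Crp, and overlap in Il1r1 and Saa4.

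The serum amyloids A1 and A2, apolipoproteins that are among the most inducible acute phase reactants of the mouse, did not pass, and their values spread widely over the tumours. Saa1 had log2 levels of 11.44, 11.90, 9.55, 13.91, 15.55 and 13.59 in HCC 1 to 6, against 11.48, 13.55, 12.63, 11.08, 11.43 and 12.65 in normal livers 1 to 6. HCC 4, 5 and 6 lay above the normal range and HCC 3 below it. The mean difference was 0.52 ± 0.85 (SE, limma adjusted p = 0.746), and without HCC 5 it was -0.06. Saa2 was at 9.91, 9.74, 7.86, 12.77, 15.17 and 11.80 in HCC 1 to 6 and at 10.14, 11.30, 10.46, 9.58, 10.04 and 10.67 in normal livers 1 to 6. The same 3 tumours were above the normal range, the same 1 below it, and the spread over the tumours was 7.31 log2 units against 1.72 over the normal livers (limma adjusted p of the mean difference 0.626). Saa1 and Saa2 are near-identical in sequence, and a second probe set named for Saa1 cites a Saa2 transcript, so their signals are not independent.

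Saa3, which is made mainly by macrophages and fat cells as well as by inflamed liver, was at 9.91, 8.67, 7.46, 9.51, 8.72 and 10.19 in HCC 1 to 6, against 9.24, 9.16, 9.09, 9.22, 9.40 and 8.58 in normal livers 1 to 6. It was again lowest in HCC 3 but highest in HCC 6 and HCC 1. Its difference of -0.04 did not pass (limma adjusted p = 0.966), and it was positive with median centring or the deposited scaling (0.03 and 0.09). The 4 genes lie side by side at chr7:46711998-46754313 (GRCm38.p6), and each had its lowest HCC value in HCC 3.

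The orosomucoids (alpha-1-acid glycoproteins), plasma carriers of basic drugs, form a second cluster at chr4:63344556-63365877. Orm2 was at 10.41, 8.68, 8.83, 12.93, 13.54 and 12.54 in HCC 1 to 6, against 8.99, 11.48, 10.38, 9.07, 9.11 and 9.46 in normal livers 1 to 6. Its 3 highest arrays were HCC 5, 4 and 6, the tumours that were also highest for Saa1 and Saa2. Orm3 was at 5.004, 5.12, 5.08, 6.89, 8.37 and 7.09 in HCC 1 to 6, against 7.91, 8.72, 8.52, 6.65, 7.30 and 7.91 in normal livers 1 to 6. HCC 1, 2 and 3 were near the floor of 4 that the added 16 sets. Orm1 was at 11.90, 14.27, 13.85, 13.75, 15.20 and 14.28 in HCC 1 to 6 and at 14.27, 14.65, 14.62, 14.39, 14.53 and 14.49 in normal livers 1 to 6. HCC 5 was above and HCC 1 far below the normal range. The differences were -0.62 for Orm1, 1.40 for Orm2 and -1.58 for Orm3 (limma adjusted p = 0.362, 0.315 and 0.0958), and without HCC 5 Orm3 passed (limma adjusted p = 0.0214). These genes also share sequence, so how much of each signal comes from a neighbour is uncertain.

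**Figure D3:**
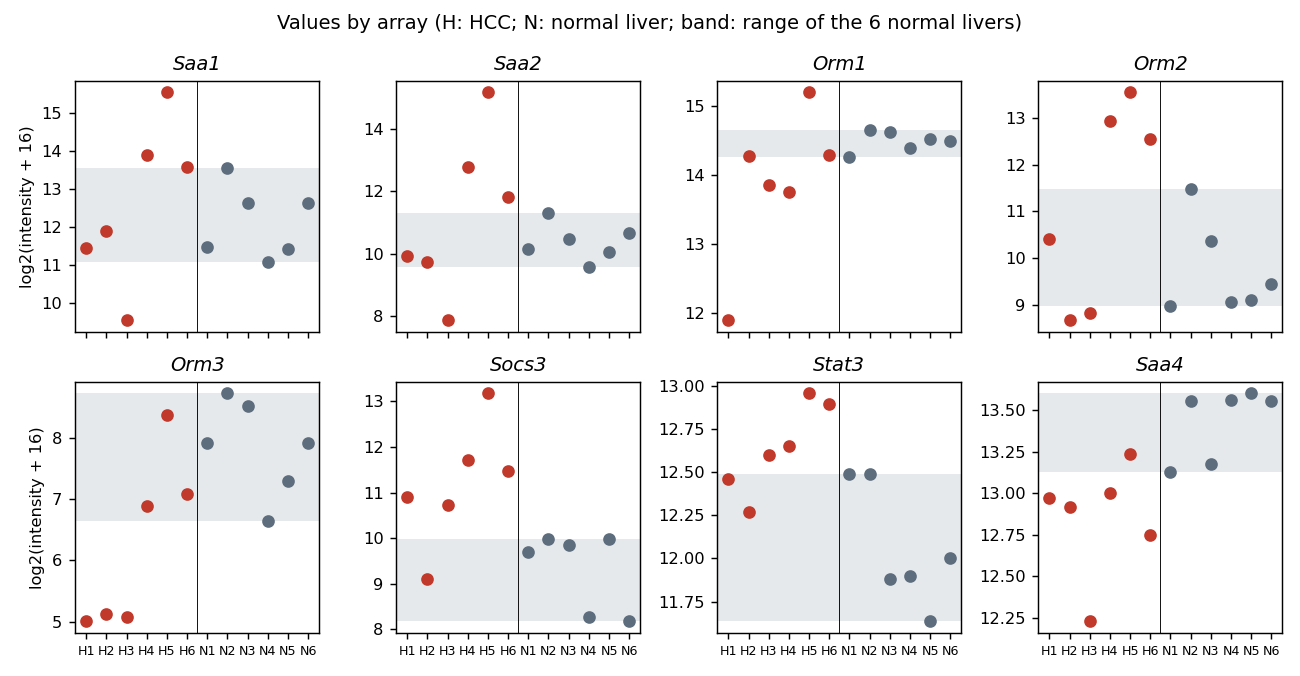
Log2 level (y axis, a separate scale in each panel) of Saa1, Saa2, Orm1, Orm2, Orm3, Socs3, Stat3 and Saa4 on each array, HCC 1 to 6 and then normal livers 1 to 6, with the band showing the range of the 6 normal livers. HCC 5 is the highest tumour in all 8 panels, which are a choice of members. Over the 30 members it was the highest tumour in 16, and in Saa3, not shown, it lay below HCC 6, 1 and 4.

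Of the IL-6 signalling members Il6ra, Il6st, Stat3 and Socs3, none passed the limma test, and all but Il6st had an unadjusted p under 0.05. Socs3, the feedback inhibitor induced by Stat3, was at 10.90, 9.10, 10.72, 11.71, 13.17 and 11.47 in HCC 1 to 6, against 9.69, 9.98, 9.84, 8.26, 9.97 and 8.17 in normal livers 1 to 6. All tumours but HCC 2 exceeded every normal liver, and HCC 5, 4 and 6 were again the top 3. The difference was 1.86 ± 0.59 (SE, limma adjusted p = 0.0534). Other probe sets gave 1.45 and 0.70, and neither passed the test over every probe set (limma adjusted p = 0.0918 and 0.579). Stat3 was at 12.46, 12.27, 12.60, 12.65, 12.95 and 12.89 in HCC 1 to 6 and at 12.49, 12.49, 11.88, 11.90, 11.63 and 11.999 in normal livers 1 to 6. HCC 3 to 6 lay above the normal range, with a mean difference of 0.57 ± 0.18 (SE, limma adjusted p = 0.0573). Of 3 dimmer probe sets of Stat3, 1 passed the test over every probe set (0.90, limma adjusted p = 0.0399), and the other two, at 0.23 and 0.15, did not. Without HCC 2, both Socs3 and Stat3 passed.

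Neither receptor subunit had a higher mean in HCC in its brightest probe set. Dimmer probe sets gave -0.31 for Il6ra and -0.34, -0.08 and 0.13 for Il6st, and none passed the test over every probe set. The IL-6-binding Il6ra was at 8.85, 7.70, 8.51, 8.89, 8.20 and 8.02 in HCC 1 to 6, against 10.05, 9.25, 8.98, 8.63, 8.41 and 8.77 in normal livers 1 to 6. HCC 2, 5 and 6 lay below the normal range, and the difference was -0.65 ± 0.29 (SE, limma adjusted p = 0.157). Il6st, the signal-transducing subunit, ranged from 10.995 through a median of 11.33 to 11.90 in HCC and from 11.32 through 11.67 to 12.24 in normal liver (limma adjusted p = 0.307). Lipopolysaccharide-binding protein (Lbp), which hands bacterial lipopolysaccharide to Cd14, was at 12.31, 12.05, 13.66, 13.03, 13.10 and 13.35 in HCC 1 to 6, against 12.66, 12.20, 12.20, 11.78, 11.75 and 11.92 in normal livers 1 to 6. HCC 3 to 6 were above the normal range (0.83 ± 0.27, SE, limma adjusted p = 0.0622).

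Of the 30 members, 8 were among the 100 brightest of 18193 genes (Fgb, Fga, Fgg, Hpx, Itih4, Cp, Hp and Itih3), and Cp was the 1 of them that passed the test. At that brightness array signals are compressed and a difference can be understated. Haptoglobin (Hp), which binds free haemoglobin, averaged 15.22 ± 0.11 in HCC and 15.13 ± 0.08 in normal livers (SD, n = 6 each, limma adjusted p = 0.632). Hemopexin (Hpx), which binds free haem, averaged 15.45 ± 0.08 in HCC and 15.34 ± 0.06 in normal livers (SD, n = 6 each, limma adjusted p = 0.548). The fibrinogen chains Fga, Fgb and Fgg, encoded together at chr3:83007724-83049863 and assembled into the clotting protein, differed by 0.02, 0.03 and -0.03 (limma adjusted p from 0.906 to 0.94). In all 3 chains HCC 1 was the lowest of the 12 arrays after quantile normalization. In the deposited intensities that held for Fgb only. There normal 1 lay below HCC 1 for Fga (45257 against 48285) and for Fgg (36869 against 37063). The inter-alpha-trypsin inhibitor heavy chains, which bind hyaluronan, differed by 0.11 for Itih3 and -0.02 for Itih4 (limma adjusted p = 0.717 and 0.94). Serum amyloid P (Apcs), the pentraxin that is an acute phase reactant in the mouse, was at 13.85, 14.82, 15.33, 14.69, 14.77 and 14.28 in HCC 1 to 6 and from 13.88 to 14.72 in normal liver. HCC 2, 3 and 5 exceeded and HCC 1 undershot that range (0.35 ± 0.24, SE, limma adjusted p = 0.377).

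The remaining serpins bind hormones or inhibit clotting. Corticosteroid-binding globulin (Serpina6) was at 14.60, 12.85, 12.35, 14.15, 13.05 and 12.32 in HCC 1 to 6, against 14.77, 13.62, 14.22, 13.53, 13.59 and 13.53 in normal livers 1 to 6. In both groups the arrays without Y-linked signal were the highest. The pooled difference of -0.66 did not pass (limma adjusted p = 0.315). It passed with Y-linked signal as a covariate (-0.66, limma adjusted p = 0.0493) and within the 4 HCC and 4 normal livers with that signal (-0.93, limma adjusted p = 0.0348), and was -0.12 within the 2 and 2 without it (limma adjusted p = 0.879). Thyroxine-binding globulin (Serpina7), on the X chromosome, was at 13.85, 12.74, 12.93, 14.26, 13.11 and 12.12 in HCC 1 to 6, against 11.44, 12.19, 12.36, 12.56, 12.33 and 13.01 in normal livers 1 to 6. HCC 1 and HCC 4, which lack Y-linked signal, were again the top 2 (0.86 ± 0.35, SE, limma adjusted p = 0.129). The protein Z-dependent inhibitor Serpina10 averaged 13.91 ± 0.28 in HCC and 13.62 ± 0.09 in normal livers (SD, n = 6 each, limma adjusted p = 0.204).

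Whether the HCC effect depended on Y-linked signal was tested as an interaction over all genes. None of the 30 members passed after adjustment (limma, lowest adjusted p = 0.229), where 0.154% of all genes did. At an unadjusted p under 0.05 there were 5, against 8.63% of all genes. The HCC difference was 0.20 with Y-linked signal and 2.16 without it for Serpina7, 1.16 and 3.54 for Il1r1, and 1.01 and 1.88 for Serpina12. For Il1rn it was 2.54 with the signal and 1.12 without, and for Orm1 -0.11 and -1.62. HCC 1 and HCC 4, the tumours without Y-linked signal, were also high in glutamine synthetase (Glul), a target of Wnt signalling, at log2 levels of 15.17 and 15.10. HCC 6, with Y-linked signal, was at 14.62, while HCC 2, 3 and 5 were at 11.75, 11.40 and 12.03 and normal livers between 13.29 and 14.33, so Y-linked signal and Glul state cannot be told apart in HCC 1 and 4.

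**Figure D4:**
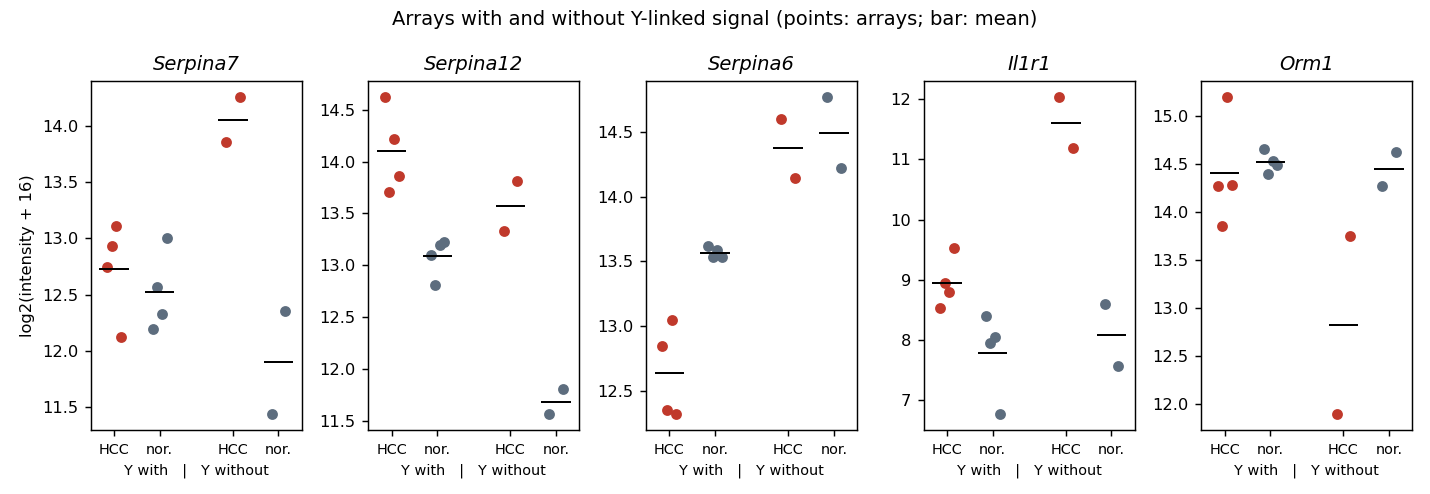
Log2 level (y axis, a separate scale in each panel) of Serpina7, Serpina12, Serpina6, Il1r1 and Orm1 in HCC and normal liver (nor.), split into arrays with Y-linked signal (4 HCC and 4 normal livers, left) and without it (2 and 2, right); points are arrays and bars are means. HCC 1 and HCC 4, the red points on the right, are the highest HCC for Serpina7, Serpina6 and Il1r1.

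By tumour, HCC 5 had the highest value of the 6 tumours in 16 of 30 members and HCC 1 the lowest in 12. In HCC 5, 20 members lay above all normal livers and 3 below them, where 20.8% and 24.3% of all genes did. In HCC 4 the counts were 18 above and 4 below (21.7% and 26.4% of all genes), and in HCC 6 they were 15 and 6 (24.8% and 30.0%). HCC 3 had 13 above and 10 below (22.9% and 25.6%), HCC 2 had 10 and 6 (20.1% and 21.8%), and HCC 1 had 9 and 9 (22.2% and 24.1%). The SD was larger in HCC than in normal liver for 25 of 30 members, against 64.7% of all genes, and the median ratio of the SDs was 1.73 over the members and 1.25 over all genes. Lcn2 was an exception, with an SD ratio of 0.446.

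The promoters of the members were read for short motifs of STAT, NF-kB and C/EBP factors and of the liver factor HNF1. RefSeq's table for GRCm38.p6 held 30 windows for 25 of the 30 measured genes, each from 250 bases before to 50 after a start, and 32851 windows in all. Both strands were searched, and matches of different motifs did not overlap in these windows. The C/EBP motif TTGCNNAA was in 15 of 30 member windows (14 genes), against 10.8% of all windows. The STAT motif TTCNNNGAA, which reads the same on both strands, was in 5 member windows against 8.30%, the NF-kB motif (GGG and TTTCC with 2 free bases between them) in 3 against 1.63%, and the HNF1 motif (GTTAAT and ATT with 1 free base between them) in 1 against 0.399%. Overlapping windows of 1 gene share matches, and a match is not evidence of binding.

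The 250 bases before the start are printed for Lcn2, the member with the largest difference, for the Saa1 and Saa2 and the Orm2 and Orm3 neighbours, and for Socs3 and Serpina3n as examples of the STAT and NF-kB motifs. They are in lower case, 5′ to 3′ on the gene's strand, with motif matches in capitals (C/EBP in Lcn2, Saa1, Saa2, Orm2 and Orm3, STAT in Socs3 and NF-kB in Serpina3n).
Lcn2 (chr2:32387740-32387989, minus strand): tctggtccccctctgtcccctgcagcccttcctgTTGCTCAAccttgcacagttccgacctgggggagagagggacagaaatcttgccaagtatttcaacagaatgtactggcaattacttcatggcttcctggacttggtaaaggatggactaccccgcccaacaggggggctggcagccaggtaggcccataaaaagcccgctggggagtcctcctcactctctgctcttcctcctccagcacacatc
Saa1 (chr7:46742981-46743230, minus strand): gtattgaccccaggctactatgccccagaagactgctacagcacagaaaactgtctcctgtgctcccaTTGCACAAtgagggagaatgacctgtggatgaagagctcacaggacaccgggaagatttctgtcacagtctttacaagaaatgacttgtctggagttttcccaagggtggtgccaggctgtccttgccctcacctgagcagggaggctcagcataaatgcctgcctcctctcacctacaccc
Saa2 (chr7:46751583-46751832, plus strand): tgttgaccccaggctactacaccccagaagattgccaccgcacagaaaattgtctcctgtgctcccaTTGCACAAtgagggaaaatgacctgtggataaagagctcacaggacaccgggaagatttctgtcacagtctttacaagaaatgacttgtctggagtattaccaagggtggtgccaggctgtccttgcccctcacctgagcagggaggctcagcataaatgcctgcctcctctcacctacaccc
Orm2 (chr4:63362199-63362448, plus strand): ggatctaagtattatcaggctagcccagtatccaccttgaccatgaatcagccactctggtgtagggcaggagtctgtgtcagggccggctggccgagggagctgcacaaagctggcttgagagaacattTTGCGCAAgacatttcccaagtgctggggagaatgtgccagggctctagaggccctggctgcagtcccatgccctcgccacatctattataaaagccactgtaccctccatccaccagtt
Orm3 (chr4:63355908-63356157, plus strand): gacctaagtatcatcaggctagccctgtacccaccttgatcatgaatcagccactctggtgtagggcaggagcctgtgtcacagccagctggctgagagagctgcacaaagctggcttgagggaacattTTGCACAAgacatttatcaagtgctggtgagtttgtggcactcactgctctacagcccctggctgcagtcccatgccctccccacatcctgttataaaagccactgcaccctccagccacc
Socs3 (chr11:117969367-117969616, minus strand): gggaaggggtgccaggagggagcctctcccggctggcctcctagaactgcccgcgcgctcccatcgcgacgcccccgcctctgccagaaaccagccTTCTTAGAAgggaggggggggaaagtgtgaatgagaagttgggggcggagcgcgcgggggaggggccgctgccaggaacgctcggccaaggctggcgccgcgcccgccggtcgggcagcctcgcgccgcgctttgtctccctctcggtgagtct
Serpina3n (chr12:104406458-104406707, plus strand): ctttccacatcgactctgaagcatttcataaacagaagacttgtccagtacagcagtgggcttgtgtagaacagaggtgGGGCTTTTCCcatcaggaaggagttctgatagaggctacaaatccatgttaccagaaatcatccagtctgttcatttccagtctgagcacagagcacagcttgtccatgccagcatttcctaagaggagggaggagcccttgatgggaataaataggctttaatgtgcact
Saa1 and Saa2, whose array signals are not independent, were identical at 238 of 251 aligned positions of this stretch. The mean differences of Orm2 and Orm3, 1.40 and -1.58, did not pass (limma adjusted p = 0.315 and 0.0958). HCC 4, 5 and 6 were the highest tumours for both. Whether promoter sequence bears on the levels of either pair was not tested. Orm2 and Orm3 were identical at 218 of 255 aligned positions, and their C/EBP matches read TTGCGCAA in Orm2 and TTGCACAA in Orm3. The match began 120 bases before the start in Orm2 and 121 in Orm3, and 182 and 183 bases before it in Saa1 and Saa2.

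Other genes of these pathways were counted from fixed lists. Over all genes 6.48% were called higher and 7.24% lower, and 28.5% had an unadjusted p under 0.05. These shares belong beside every list count below. Of 13 measured IL-6 family cytokines and receptors, 2 rose and none fell (median difference -0.03), while 5 had an unadjusted p under 0.05. The list includes Il6ra and Il6st. The oncostatin M receptor Osmr, which pairs with Il6st, averaged 9.49 ± 0.67 in HCC and 7.72 ± 0.47 in normal livers (SD, n = 6 each) and rose by 1.77 ± 0.31 (SE, limma adjusted p = 0.00324), with no overlap. Il10rb, a subunit of the IL-10 and IL-22 receptors, rose by 1.06 (limma adjusted p = 0.0329), a call lost when any of 5 arrays was omitted. The ligand Il6 itself, chosen after its values were seen, was close to the floor in both groups, at 4.19 to 5.84 in HCC and 4.35 to 6.04 in normal liver (limma adjusted p = 0.75).

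Of 25 JAK-STAT transducers and inhibitors, 3 rose and 2 fell (median 0.24), where 6.48% of all genes were called higher and 7.24% lower. Socs5 rose by 0.77 and Stat6, the IL-4 transducer, by 0.58, while Stat5a fell by 0.75 (limma adjusted p = 0.00295, 0.0246 and 0.0368). The calls of Stat6 and Stat5a were lost when any of 2 and of 9 arrays was omitted. Of 18 genes known as Stat3 targets, 9 rose and 1 fell (median 0.56, with 13.7% of all genes called in either direction). With single arrays omitted 5 to 9 rose, the 5 without normal 3 or normal 4. The mitotic protein Birc5 rose by 2.95 and the membrane prothrombinase Fgl2 by 2.11, and the iron hormone hepcidin (Hamp) fell by 4.71 (limma adjusted p = 0.000321, 0.00106 and 0.00139). Among the other 7 that rose were the cell cycle genes Ccnd1 and Myc, which other pathways also control.

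In the list of 31 IL-1, TNF and NF-kB genes, 10 rose and 2 fell (median 0.16), the members Il1r1 and Il1rn among those that rose, where 6.48% of all genes were called higher and 7.24% lower. With single arrays omitted 6 to 9 rose, the 6 without HCC 6 or normal 3, and 1 or 2 fell. The lipopolysaccharide coreceptor Cd14 averaged 11.21 ± 0.92 in HCC and 8.004 ± 0.37 in normal livers (SD, n = 6 each) and rose by 3.21 (limma adjusted p = 0.000227). Relb, a subunit of NF-kB, rose by 1.65 (limma adjusted p = 0.00249). The IL-1 receptor accessory protein Il1rap, which Il1r1 needs to signal, fell by 1.67 with no overlap between the groups (limma adjusted p = 0.00343). Of 27 further positive acute phase genes 5 rose and 4 fell (median 0.09), Cd14 and Hamp among them, and the mannose-binding lectin Mbl1 fell by 1.22 (limma adjusted p = 0.00357). Of 18 negative acute phase genes, whose output falls during the response, 1 rose and none fell (median 0.02, with 4 at an unadjusted p under 0.05), and that 1 was the apolipoprotein Apoa4 at 1.64 (limma adjusted p = 0.000739).

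Of 28 other serpins, 3 rose and 3 fell (median -0.06), where 6.48% of all genes were called higher and 7.24% lower. Serpinb1a, an intracellular inhibitor of neutrophil elastase, averaged 6.39 ± 1.01 in HCC and 10.62 ± 0.88 in normal livers (SD, n = 6 each) and fell by 4.24 (limma adjusted p = 0.000236). The intracellular Serpinb6b and Serpinb6a, which are close paralogues, rose by 1.97 and 1.86 (limma adjusted p = 0.0167 and 0.031), the second losing its call when any of 6 arrays was omitted. Of 14 transcription factors of acute phase promoters, 3 rose and 2 fell (median 0.07), against the same shares of all genes. The immediate early factor Egr1 rose by 3.06, the bile acid receptor Nr1h4 fell by 1.54 and Foxa3 rose by 1.05 (limma adjusted p = 0.0031, 0.00629 and 0.0138). Of the C/EBP factors in this list, Cebpa fell with no overlap between the groups (-0.71, limma adjusted p = 0.0129), and Cebpg rose. Cebpb, at 0.44 (limma adjusted p = 0.389), and Cebpd did not pass.

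Markers of other cells were summed on the normalized intensity scale, since neutrophils and macrophages also express Lcn2, Saa3, Il1rn and Cd14. The sum of 13 measured neutrophil markers was 1262, 1624, 1887, 3328, 2846 and 5773 in HCC 1 to 6, against 884 to 1610 in normal liver (exact permutation p = 0.013, adjusted p = 0.0649). HCC 2 to 6 lay above the normal range and HCC 1, whose Lcn2 level was 14.44, within it. Of the 13, 1, the granule protease Prtn3, rose by 2.98 (limma adjusted p = 0.00628), and none was under a log2 level of 5 on all arrays. The sum of 15 macrophage and Kupffer cell markers was 8299 to 48337 in HCC and 10893 to 24196 in normal liver, with HCC 6 highest (exact permutation p = 0.632). Of its markers 3 fell, the Kupffer cell lectin Clec4f by 2.36, Timd4 by 2.11 and Cd163 by 1.16. The call of Cd163 was lost when any of 7 arrays was omitted. The other 12 did not pass, and some of them had a higher mean in HCC. Among these were Cd68 at 1.34, C1qa at 0.83 and C1qb at 0.81 (limma adjusted p = 0.107, 0.251 and 0.182). The median difference of the 15 was -0.30. The part of these cells in the differences of Lcn2, Il1rn, Saa3 and Cd14 was not tested.

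Of the other marker lists, none of 9 T and NK cell and none of 9 B and plasma cell markers passed, with Nkg7 at 0.77 and Ms4a1 at -0.43 (limma adjusted p = 0.0935 and 0.44). At an unadjusted p under 0.05 there were 2 T and NK cell markers and 0 of the others, against 28.5% of all genes. After adjustment 6.48% of all genes were called higher and 7.24% lower. The summed T and NK cell markers were at 633 to 1504 in HCC and 391.5 to 805 in normal liver (exact permutation p = 0.039, adjusted p = 0.108). For sinusoidal endothelium 3 of 12 fell, Clec4g by 2.13, Dnase1l3 by 1.36 and Stab2 by 1.11, and the sum of the 12 was 5851 to 10992 in HCC and 7549 to 13384 in normal liver (exact permutation p = 0.0584). In the list of 12 stellate cell and fibroblast markers 1 rose and 4 fell, with Col1a1 at 3.27, Lrat at -2.52 and Dcn at -2.07. The calls of Dnase1l3, Col1a1 and Dcn were each lost when certain single arrays were omitted. None of 7 cholangiocyte markers passed, also at an unadjusted p under 0.05, Cftr being at 0.74 (limma adjusted p = 0.237).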

How the data were processed

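Arrays of 6 HCC and 6 normal livers were grouped by their titles. Per the labels, total RNA was labelled with biotin after one-cycle cDNA synthesis. The deposited intensity values are linear signals of 45101 probe sets, scaled by the authors to a 2% trimmed mean of 500.0 per array. The sources used here do not name the step from probes to probe sets. Precision is limited by the number of arrays. 

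Intensities were converted to log2(intensity + 16) and quantile normalized, because the deposited arrays did not share a median. Leaving out 64 control probe sets, 34945 probe sets named 1 gene, 932 several and 9160 none in the platform annotation used. Symbols were updated by gene ID to GRCm38.p6. Groups were compared with limma 3.58.1 (lmFit and eBayes, two-sided, in R 4.3.3), and p-values were adjusted by Benjamini-Hochberg over 18193 genes and a threshold of 0.05. Y-linked signal was split at a mean log2 level of 7. Marker sums and the 3'/5' ratios of Gapdh and beta-actin controls were compared by a two-sided exact permutation test over 924 assignments, adjusted over 10 measures. The ratios were 0.736 ± 0.0385 in HCC and 0.745 ± 0.0360 in normal liver for Gapdh (SD, n = 6 each, exact p = 0.671) and 1.49 ± 0.107 and 1.64 ± 0.113 for beta-actin (exact p = 0.0433, adjusted p = 0.108).

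All measured members are named. From each other list up to 3 genes past the test with the largest difference are named, or the gene with the smallest p. A few further genes, such as Cebpa and Cebpg, are named outside this rule. Members and lists were chosen with earlier results of these data known. The gene test was tested on simulated data. Tables and figures used Python 3.11.15, pandas 2.3.3, numpy 2.4.6 and matplotlib 3.10.9. Alternatives covered the pseudocount, dim genes, probe sets, scaling, the variance model, array weights, a replicate block, Y-linked signal and single arrays.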

Additional observations from a re-analysis of the deposited data

Results flagged for a closer look

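In the quantile normalized values, HCC 1 stood apart from the other 5 tumours in the 3 fibrinogen chains. Each gap was larger than Dixon's 95% critical value of 0.625 times the range of the 6 tumours. Fgb was at a log2 level of 15.43 in HCC 1 and between 15.79 and 15.88 in the other HCC, a gap of 0.804 of the range. Fga was at 15.62 in HCC 1 against 15.75 to 15.81 in the others, and Fgg at 15.25 against 15.43 to 15.51. In the deposited intensities HCC 1 was also the lowest tumour in each chain, but each gap was under that critical value. Fga was there at 48285 in HCC 1, 52129 in HCC 6, the next tumour, and 65667 in HCC 3, the highest. In the same 3 tumours Fgb was at 42578.5, 52144 and 67997, and Fgg at 37063, 41009 and 50414. The 3 genes are neighbours, so their flags are not independent. Over the 60 groups of members examined, 3 were marked in this way, and chance marks about 1 in 20 groups.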

How the results depend on the processing

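Of 749 values of members under alternatives, 674 kept direction and side of the threshold, 38 lost a call, 19 gained one and 18 changed sign. The count of members higher in HCC, 6, was 5 to 9 with single arrays left out, and 1 within the arrays without Y-linked signal. The count lower, 2, was 1 to 3 with single arrays left out. It was 1 with a pseudocount of 1, with the mean of all probe sets, with the replicate block, within the arrays with Y-linked signal and with every probe set tested, and 0 within the arrays without Y-linked signal, a set of 2 against 2. Within the arrays with Y-linked signal that 1 was Serpina6 (limma adjusted p = 0.0348). Both Crp and Saa4 lost their calls there (limma adjusted p = 0.103 and 0.0749). Lcn2 was the 1 member called in every setting. With the replicate block 5 members were higher, Cp losing its call (limma adjusted p = 0.0565), and over all genes 862 were higher and 839 lower, against 1179 and 1318 without it. The numbers were not taken as pairs: deviations from the group means correlated at -0.0147 to 0.0778 between arrays of the same number, and 2 of 6 HCC arrays correlated best with their own number. Over all genes, the arrays with Y-linked signal alone gave 575 higher and 563 lower, and those without it 40 and 37, from fewer arrays.

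Changes of sign concerned members that did not pass. With the deposited scaling Saa3 was at 0.0927, Fgg at 0.0354 and Itih4 at 0.0360, and with median centring Saa3 was at 0.0255. Itih4 was at 0.0244 within arrays with Y-linked signal. Without that signal Saa3 was at 0.55, Apcs at -0.11, Fga at -0.0632, Fgb at -0.15 and Itih3 at -0.32. With single arrays left out Saa3 ran from -0.26 to 0.29, Saa1 from -0.0601 to 1.14, Fgg from -0.0416 to 0.0117 and Itih4 from -0.0641 to 0.0435. Of the called members, Saa4 also lost its call with a pseudocount of 1, the mean of all probe sets, the replicate block, Y-linked signal as a covariate and every probe set tested (limma adjusted p from 0.0510 to 0.0718), and Il1r1 with a pseudocount of 1, the trended variance model and every probe set tested (limma adjusted p from 0.0505 to 0.0553). The cause was not tested. Of 800 counts over the other lists, 657 stayed within 1.5 times. With single arrays left out, the counts higher and lower were 1 to 2 and 0 to 1 for the IL-6 family, 1 to 5 and 0 to 2 for JAK-STAT genes, 2 to 5 and 4 to 6 for further positive acute phase genes and 2 to 3 and 2 to 6 for other serpins.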

Other observations

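The normal livers also varied in the inducible genes. Normal 2 was the highest normal liver for Saa1 at 13.55, Saa2 at 11.30, Orm2 at 11.48, Orm3 at 8.72 and Lcn2 at 11.46. Normal 4 was the lowest for Saa1 at 11.08, Saa2 at 9.58, Orm3 at 6.65 and Lcn2 at 8.71. These genes were picked after their values were seen.

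HCC 3 combined the lowest serum amyloid levels of all 12 arrays with the highest Apcs, Lbp and Il1rn. Its log2 levels were 9.55 for Saa1 and 7.86 for Saa2, and 15.33 for Apcs, 13.66 for Lbp and 11.36 for Il1rn.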
